A study of Arabidopsis thaliana with 6 samples.

Results

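The 9 genes described here encode proteins of the Prp19 complex and of the U5 small nuclear ribonucleoprotein (snRNP), or a factor that acts on them, in Arabidopsis thaliana. They were chosen by locus from the 33602 genes in the deposited table, as spliceosome activation factors of which several have clock or flowering roles: MAC3A, MAC3B, PRL1, CDC5 and SKIP, then PRP8, BRR2A and CLO, and last STIPL1. Polyadenylated RNA was sequenced from whole plants of the Col-0 accession, with 3 libraries of a prmt5 mutant and 3 of the wild type, all from untreated plants harvested at 15 days. The plants had been stratified for 4 days at 4 °C and grown on agar medium at 22 °C in constant white light, and libraries took 12 PCR cycles from 3 µg of RNA. The sources used here name no prmt5 allele and do not say whether replicates came from separate sowings, so p-values measure the spread between these libraries, which may be technical. PRMT5 encodes an arginine methyltransferase that acts on, among others, spliceosomal Sm proteins.

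Removal of an intron takes several rearrangements of the spliceosome. U5 snRNP enters together with U4 and U6; its GTPase Snu114 (CLO in Arabidopsis) and its helicase Brr2 (BRR2A) take part in unwinding U4 from U6, while Prp8 (PRP8) holds the splice sites and the catalytic RNA core. The Prp19 complex then joins and keeps U5 and U6 in the active form. Its core pairs the U-box ubiquitin ligase Prp19 (MAC3A and MAC3B) with the Myb-related protein CDC5 and the WD40-repeat protein PRL1, and SKIP is a partner protein. In plants, several of these genes are known from immunity, circadian timing or flowering. STIPL1 is a homolog of yeast Ntr1, which takes part in taking the spliceosome apart after splicing.

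Relative to their gene, 4 of the 28 introns tested were called higher in the mutant than in the wild type, at an adjusted p under 0.05. That is 14.3%, against 26.7% of 34408 introns called higher in all genes. The 5′ splice sites of these 4, also called donors, are printed first to show where the raised introns begin. In each line, 25 bases read 5′ to 3′ on the strand of the gene, and capitals mark the last 3 exonic and the first 6 intronic bases. The sequences are from the RefSeq copy of TAIR10.1.
MAC3B intron 8 (chr2:14129032-14129056, minus strand): acattctAAGGTCCCTcatctgatg
MAC3A intron 12 (chr1:1229328-1229352, plus strand): ccttgctCAGGTCTCCaaaatttta
MAC3A intron 2 (chr1:1226928-1226952, plus strand): gcatataTCCGTAAGCaagttcttt
PRL1 intron 6 (chr4:9025018-9025042, plus strand): gaattacAGGGTAAAAtccgtggct

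MAC3A and MAC3B are paralogs with a matching order of introns, so the donors at the same place in the other copy can be set beside those of the raised introns.
MAC3A intron 8, matching MAC3B intron 8 (chr1:1228438-1228462, plus strand): acattctAAGGTTTGAcacctaaga
MAC3B intron 12, matching MAC3A intron 12 (chr2:14127829-14127853, minus strand): ccttgcaCAGGTCCCTaaacacttt
MAC3B intron 2, matching MAC3A intron 2 (chr2:14130792-14130816, minus strand): acatataTCGGTAAGCtttgagctg

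Total gene counts lay between 29145068 and 59480457 per library. The targeted gene, PRMT5, had 56.0, 58.7 and 53.7 CPM (reads per 1000000 gene reads after scaling) in the mutant libraries, against 35.5, 29.4 and 30.9 CPM in the wild type libraries, so the libraries labelled mutant carried more PRMT5 reads (log2 change 0.81 ± 0.10 SE, adjusted p = 0.00011, edgeR). Without the allele, this level does not check the labels. The libraries also differed in where reads fell along genes. With genes cut into 3 equal parts, the 3′ part held more reads per base of exon than the 5′ part by a median log2 ratio of 0.78, 0.85 and 1.34 in the mutant libraries and 1.70, 1.27 and 1.34 in the wild type libraries. Among organ markers, 3 of 4 green leaf genes were lower in the mutant, with a summed level of 24313 to 26027 CPM, against 33565 to 40326 CPM in the wild type. Of 8 root genes 2 were lower and 0 higher (summed 63 to 90 CPM in the mutant and 78.5 to 90.4 CPM in the wild type), and 1 of 2 guard cell genes was higher (summed 47.4 to 65 CPM and 31.7 to 38.1 CPM). The higher one was MYB60, at 29.2, 34 and 42.2 CPM in the mutant, against 12.4, 13.8 and 13.1 CPM in the wild type. FAMA was not called and had a log2 change of -0.12. The 5 flower genes summed to 0.877 to 2.16 CPM in the mutant and 4.25 to 5.69 CPM in the wild type, and both of those tested were lower. In RNA of whole plants, fewer cells of a type and less RNA per cell cannot be told apart, and the part of tissue makeup in the results below was not tested.

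Levels of the 9 genes changed little between the genotypes. In the gene test 1 of 9 was called, PRP8, which was higher in the mutant. That is 11.1%, against 34.5% of 21949 genes tested (7568 called at an adjusted p under 0.05), of which 18.6% were called higher and 15.9% lower. The median log2 change was 0.10 over the 9 genes and -0.02 over all genes tested, and the 8 genes that were not called had log2 changes between -0.04 and 0.23.

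**Figure D1:**
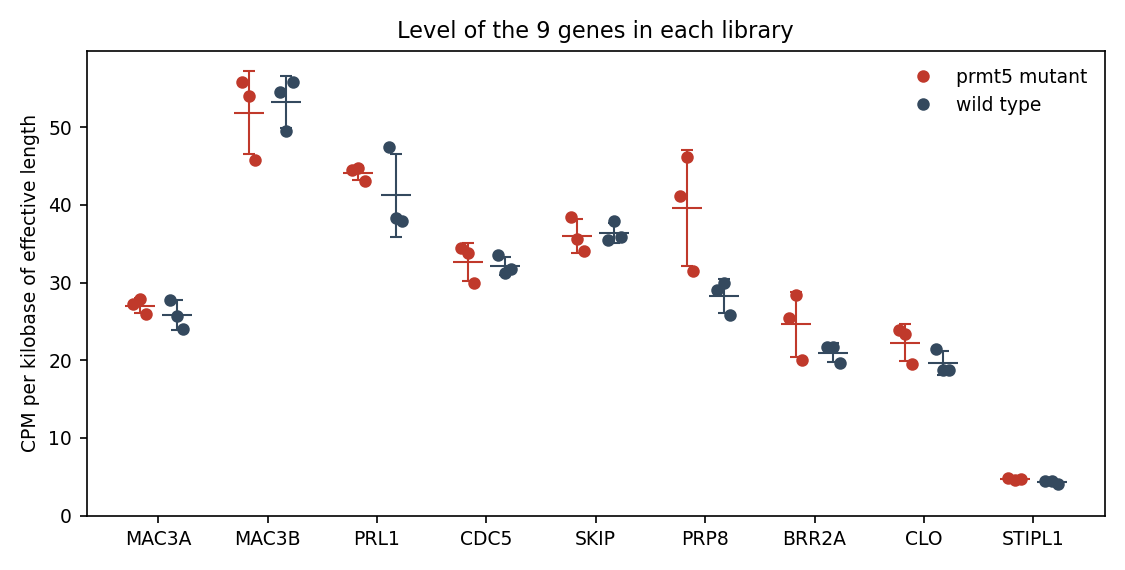
Level of each of the 9 genes in CPM per kilobase of effective gene length, on a linear axis, with a point for each library, horizontal bars at the mean and vertical bars of 1 SD (n = 3 each), prmt5 mutant in red left of wild type in dark blue. The groups of PRP8 stand apart, at a mean of 39.6 in the mutant and 28.3 in the wild type, and STIPL1 lies lowest in both genotypes.

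The U-box proteins of the Prp19 complex come from a pair of genes. MAC3A (AT1G04510, chromosome 1, 1226575 to 1230827) had 54.1, 55.5 and 51.7 CPM in the mutant, against 55.3, 51.0 and 47.7 CPM in the wild type (log2 change 0.07 ± 0.09 SE, adjusted p = 0.605, edgeR). MAC3B (AT2G33340, chromosome 2, 14126217 to 14131153) had 117, 114 and 96.4 CPM in the mutant, against 115, 104 and 117 CPM in the wild type (-0.04 ± 0.11 SE, adjusted p = 0.813, edgeR). Both genes had overlapping groups. MAC3A took 31.6%, 32.8% and 34.9% of the summed reads of the pair in the mutant, against 32.5%, 32.9% and 28.9% in the wild type. The difference of 1.65 percentage points was within the spread (two-sided exact permutation test, p = 0.5; the smallest p that 3 against 3 libraries allow is 0.1).

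The WD40 protein gene PRL1 (AT4G15900, chromosome 4, 9023728 to 9027666) had 77.1, 77.3 and 74.6 CPM in the mutant, against 82.1, 66.3 and 65.8 CPM in the wild type (0.10 ± 0.11 SE on the log2 scale, adjusted p = 0.512, edgeR). CDC5 (AT1G09770, chromosome 1, 3161841 to 3165360) had 101, 99.1 and 87.9 CPM in the mutant and 98.3, 91.4 and 93.3 CPM in the wild type (0.02 ± 0.10 SE, adjusted p = 0.868, edgeR). SKIP (AT1G77180, chromosome 1, 28999608 to 29002135), whose product also acts in transcription and in clock timing, had 92.3, 85.7 and 82.1 CPM in the mutant and 85.5, 91.2 and 86.4 CPM in the wild type (-0.02 ± 0.09 SE, adjusted p = 0.904, edgeR). In all 3 genes the values of the genotypes overlapped, and the mean log2 change was no larger than its standard error.

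All 3 U5 genes had positive log2 changes. PRP8 (AT1G80070, chromosome 1, 30118052 to 30127811) had 301, 338 and 230 CPM in the mutant, against 213, 219 and 189 CPM in the wild type. Its groups did not overlap, though mutant replicate 3 lay close to the wild type libraries (290 ± 54.8 CPM in the mutant and 207 ± 15.8 CPM in the wild type, SD, n = 3 each), and the log2 change was 0.49 ± 0.14 SE (adjusted p = 0.0214, edgeR). BRR2A (AT1G20960, chromosome 1, 7301748 to 7310250) had 178, 199 and 141 CPM in the mutant and 152, 152 and 137 CPM in the wild type (0.23 ± 0.13 SE, adjusted p = 0.192, edgeR). CLO (AT1G06220, chromosome 1, 1899964 to 1904873), the GTPase gene also named GFA1, had 84.8, 82.9 and 69.2 CPM in the mutant and 75.8, 66.8 and 66.7 CPM in the wild type (0.18 ± 0.11 SE, adjusted p = 0.216, edgeR). The PRP8 call was lost without mutant replicate 1 (0.46, adjusted p = 0.0566), mutant replicate 2 (0.36, adjusted p = 0.109) or wild type replicate 3 (0.42, adjusted p = 0.097), and without mutant replicate 3 BRR2A was called too (0.36, adjusted p = 0.046). In all 3 U5 genes mutant replicates 1 and 2 were above every wild type library, and mutant replicate 3 was the lowest of the mutant libraries.

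Read density along the U5 genes differed between the same libraries. In PRP8 the log2 ratio of density in the 3′ part over the 5′ part was 2.10, 2.02 and 3.64 in the mutant, against 3.65, 3.18 and 3.77 in the wild type. In BRR2A it was 1.87, 1.68 and 3.01 in the mutant, against 3.21, 2.75 and 3.26 in the wild type. The mutant libraries with the higher PRP8 and BRR2A levels were those with relatively more reads near the 5′ end. This was not particular to the U5 genes. In every one of the 9 genes that has a ratio, mutant replicates 1 and 2 lay below every wild type library. In CDC5, whose level changed little, it was 1.62, 1.84 and 2.75 in the mutant, against 2.63, 2.43 and 3.03 in the wild type. In SKIP it was 1.31, 1.56 and 2.28 in the mutant, against 2.80, 2.15 and 2.16 in the wild type. With each library's median ratio as a covariate, the log2 change of PRP8 was 0.24 (adjusted p = 0.400, edgeR) and 0 of the 9 genes were called; 18.8% of all genes were. The part of coverage in the PRP8 call was not tested further.

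STIPL1 (AT1G17070, chromosome 1, 5837590 to 5840332) had 13.2, 12.6 and 13.0 CPM in the mutant, against 12.2, 12.3 and 11.1 CPM in the wild type. Every mutant library was above every wild type library, but the log2 change of 0.12 ± 0.11 SE was not called (adjusted p = 0.434, edgeR). The gene has no intron bins in the deposited tables, and it overlaps the neighbouring gene AT1G17080, so its counts are uncertain, since no source used here says whether counting took strand into account.

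Per length, the order of levels in the wild type ran from MAC3B over PRL1, SKIP, CDC5, PRP8, MAC3A, BRR2A and CLO to STIPL1, and in the mutant PRP8 stood above SKIP and CDC5. MAC3B averaged 51.9 ± 5.32 CPM per kilobase in the mutant and 53.3 ± 3.35 in the wild type, and PRL1 averaged 44.1 ± 0.854 in the mutant and 41.2 ± 5.37 in the wild type (SD, n = 3 each). PRP8 averaged 39.6 ± 7.49 in the mutant and 28.3 ± 2.16 in the wild type. The levels of SKIP (36.0 ± 2.15 in the mutant, 36.5 ± 1.28 in the wild type), CDC5 (32.7 ± 2.39, 32.2 ± 1.21), MAC3A (27.1 ± 0.962, 25.8 ± 1.91), BRR2A (24.6 ± 4.23, 21.0 ± 1.23) and CLO (22.3 ± 2.40, 19.7 ± 1.48) lay below PRL1 in both genotypes. STIPL1 was lowest, at 4.71 ± 0.108 in the mutant and 4.34 ± 0.24 in the wild type, where MAC3B was 12.3 times as high. Neighbours whose ranges of mean ± 1 SD overlapped were PRL1 and PRP8, PRP8 and SKIP, SKIP and CDC5, MAC3A and BRR2A, and BRR2A and CLO in the mutant. In the wild type they were PRL1 and SKIP, PRP8 and MAC3A, and BRR2A and CLO.

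The genes whose CPM across the 6 libraries was most like that of PRP8, after each gene's own mean was removed, were AT1G64790 (ILA), AT1G65440 (GTB1) and AT5G20980 (MS3), with root mean square differences of 0.0237, 0.0279 and 0.0518 on the log2 scale, out of 16137 genes with a mean of at least 5 CPM. ILA had 166, 184 and 127 CPM in the mutant and 117, 118 and 107 CPM in the wild type. ILA and GTB1 are long, with effective lengths of 8528 and 5460 bases, against 7317 for PRP8, and MS3 has 3164.

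Introns of the 9 genes were then compared relative to their own gene, which asks whether a larger share of each transcript keeps the intron. The tables hold 95 introns of 8 of the genes, 92 constitutive and 3 annotated as retained, and 28 had enough reads to test. Of these, 4 were called higher in the mutant and 0 lower, or 14.3%, against 27.9% of 34408 introns tested in all genes (26.7% higher and 1.21% lower). Since an intron can reach the minimum of 10 reads in 3 libraries through the genotype where it is high, the count and its direction are a description of the introns that passed. Tested relative to spliced reads, 4 of 26 introns were called, 3 of them the same and 1 an annotated retained intron described below, against 27.4% of 30246 in all genes. With the coverage covariate 2 of the 28 were called relative to the gene, against 16.5% in all genes. The median log2 change relative to the gene was -0.02 over the 28 introns, of which 14 had a positive value, and 0.46 over all introns tested. The 67 introns left out by the read minimum had at most 25 reads in any library. In a fit without that minimum, 6 of all 95 introns were called, against 10.2% of 101081 in all genes: the same 4, the last intron of BRR2A, which was lower (-0.44, adjusted p = 0.0323, edgeR), and 1 of the 67, PRL1 intron 14. PRL1 intron 14 (chr4:9026630-9026748) had 6, 25 and 3 reads in the mutant, against 2, 0 and 1 in the wild type (3.31 ± 0.91 SE, adjusted p = 0.00451, edgeR), so most of its reads came from mutant replicate 2.

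**Figure D2:**
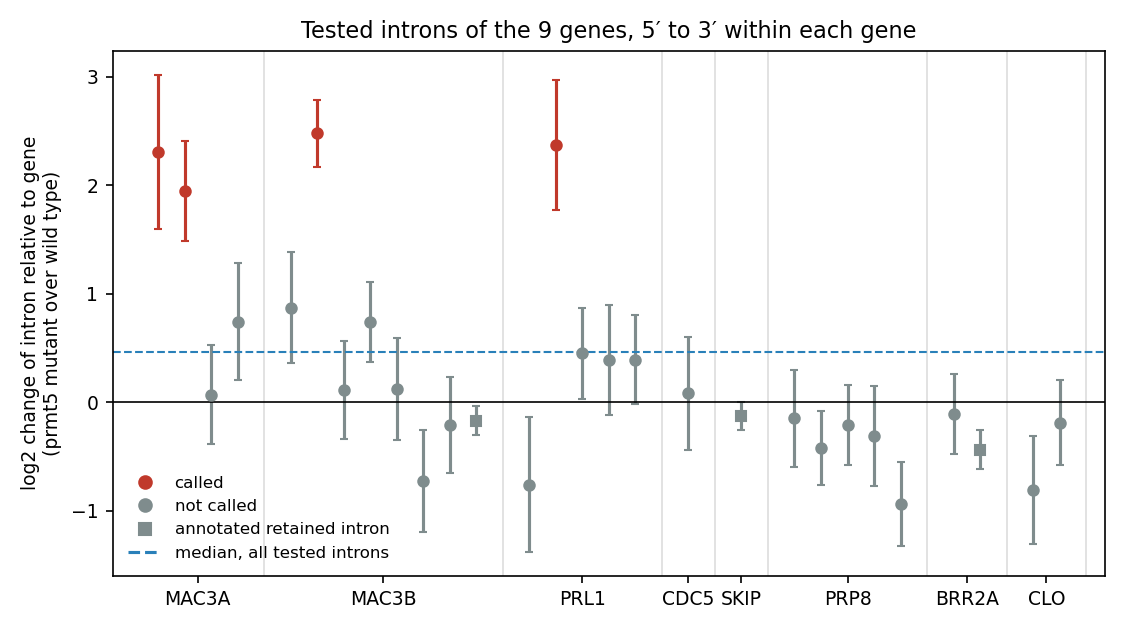
Log2 change of each of the 28 tested introns relative to its gene, prmt5 mutant over wild type, with bars of 1 SE, ordered 5′ to 3′ within each gene. The 4 called introns (red) lie at 1.95 to 2.48, all in MAC3A, MAC3B and PRL1, while the other 24 (grey, squares for annotated retained introns) lie between -0.94 and 0.87; the dashed line is the median of all tested introns, 0.46.

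All 4 calls were in MAC3A, MAC3B and PRL1, genes of the Prp19 core, which also held most of the tested introns (4, 8 and 5). PRP8 had 5 tested introns, CLO and BRR2A 2 each, and CDC5 and SKIP 1 each. The largest change was in MAC3B intron 8 (chr2:14128700-14129046, 347 bases, intron 8 of 18, between coding exons). It held 64, 99 and 54 reads in the mutant, against 11, 24 and 9 in the wild type. Relative to the gene this is 1.59, 2.10 and 1.64 reads per 100 gene reads in the mutant and 0.246, 0.406 and 0.274 in the wild type (1.78 ± 0.281 and 0.309 ± 0.0856, SD, n = 3 each). The groups did not overlap, and the log2 change was 2.48 ± 0.31 SE (adjusted p = 3.44e-07, edgeR). Reads spliced over the intron numbered 267, 266 and 203 in the mutant and 220, 377 and 234 in the wild type. Relative to those spliced reads the log2 change was 2.49 ± 0.34 SE (adjusted p = 2.31e-05, edgeR). In both genotypes the spliced reads outnumbered the reads inside the intron.

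MAC3A held the other called introns of the Prp19 pair. Intron 12 of 17 (chr1:1229338-1229503, 166 bases) had 39, 25 and 24 reads in the mutant, against 13, 6 and 5 in the wild type, without overlap (1.51 ± 0.529 per 100 gene reads in the mutant and 0.395 ± 0.199 in the wild type; log2 change 1.95 ± 0.46 SE, adjusted p = 0.0015, edgeR). Its spliced reads were 142, 195 and 131 in the mutant and 187, 217 and 125 in the wild type. Relative to these the log2 change was 2.07 (adjusted p = 0.00321, edgeR). Intron 2 of 17 (chr1:1226938-1227086, 149 bases) was thinner, with 10, 21 and 14 reads in the mutant, against 0, 4 and 5 in the wild type (log2 change 2.31 ± 0.71 SE, adjusted p = 0.013, edgeR). Only the mutant libraries reached the minimum of 10 reads, so intron 2 entered the test through the genotype where it was high. Relative to its spliced reads, 99, 105 and 65 in the mutant and 60, 94 and 57 in the wild type, the intron 2 call was lost (1.96, adjusted p = 0.060), as it was with the coverage covariate (2.03, adjusted p = 0.183).

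PRL1 intron 6 of 16 (chr4:9025028-9025144, 117 bases) had 25, 23 and 23 reads in the mutant, against 3, 1 and 9 in the wild type. The groups did not overlap (0.855 ± 0.122 per 100 gene reads in the mutant and 0.203 ± 0.249 in the wild type, SD, n = 3 each; log2 change 2.37 ± 0.60 SE, adjusted p = 0.00295, edgeR). Its spliced reads were 136, 235 and 114 in the mutant and 140, 133 and 99 in the wild type, and relative to them the log2 change was 2.09 (adjusted p = 0.0206, edgeR). With the coverage covariate the PRL1 value was 2.31 and was not called (adjusted p = 0.0602). No other gene of the reference annotation overlaps any of the 4 introns. PRL1 intron 6 and MAC3A intron 2 reached the minimum of 10 reads only in the mutant, where 3 libraries did and 0 of the wild type. They entered the test through the genotype where they were high, and without any 1 mutant library they could not be tested. Without the minimum both were called (adjusted p = 0.000442 for PRL1 intron 6 and 0.00999 for MAC3A intron 2, edgeR). MAC3B intron 8 and MAC3A intron 12 were called without each mutant library in turn.

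**Figure D3:**
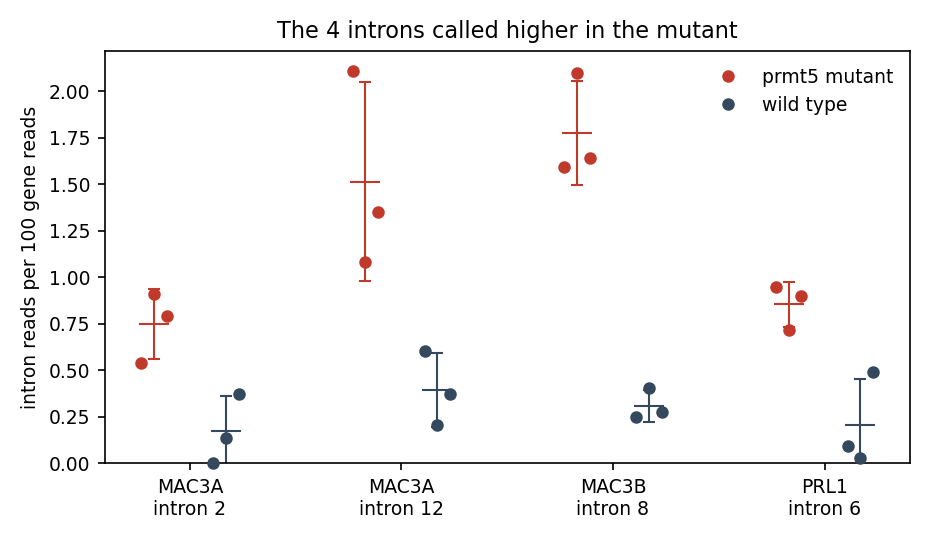
Intron reads per 100 reads of the gene in each library for the 4 called introns, with bars of mean and 1 SD (n = 3 each, cut off at 0), prmt5 mutant in red left of wild type in dark blue. For MAC3B intron 8 the mutant libraries lie at 1.59 to 2.10 and the wild type libraries at 0.246 to 0.406. The groups overlap in none of the 4 introns, which are shown because they were called higher.

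Each of the 4 introns, if kept, brings a stop codon in the reading frame of its transcript. MAC3B intron 8 holds 10 in-frame stops, the first at base 22 of the intron. MAC3A intron 12 holds 3, the first at base 25, and MAC3A intron 2 holds 1, at base 43. Such stops are the rule here: 80 of the 86 introns that lie between coding exons of the 9 genes hold one. PRL1 intron 6 is a whole number of codons long and has a single in-frame stop, at base 100, shown in capitals in its sequence (RefSeq TAIR10.1, chr4:9025028-9025144, plus strand).
PRL1 intron 6: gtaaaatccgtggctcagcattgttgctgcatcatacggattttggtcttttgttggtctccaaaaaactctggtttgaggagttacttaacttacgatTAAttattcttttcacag

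Donors were scored by how common their 9 bases are among annotated donors, as a sum of log2 ratios, over 121270 introns that begin with GT and end with AG. The median score of all these introns was 7.09, and that of the 24 tested introns that were not called was 7.95. MAC3A intron 2 scored 1.84, below all but 2.4% of introns, MAC3A intron 12 scored 2.97 (4.9%), MAC3B intron 8 scored 3.89 (9.3%) and PRL1 intron 6 scored 6.66 (42.4%). Thus 3 of the 4 donors printed above scored below 90% of all donors, and that of PRL1 was near the middle. A score describes these letters and is no measure of use. Low scores also occurred among tested introns that were not called relative to the gene. These include MAC3B intron 12 (3.74) and the annotated retained introns of MAC3B (1.21) and SKIP (2.82). Those 2 retained introns were rarely spliced in either genotype, so reads inside them had little room to rise relative to the gene. The one of MAC3B was called relative to spliced reads, as described below. A MAC3B intron bin that is in no reference transcript (chr2:14126721-14126791) was not called relative to the gene, but its score of 0.93 was read at the edge of the bin. Spliced reads there spanned chr2:14126721-14126796, with 1216 in the mutant and 1530 in the wild type. The donor of that junction was not scored, so this bin is no example of a low-scoring donor. MAC3A intron 14 (2.75) had too few reads to test.

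The paralogs allow a comparison at the same place in 2 closely related genes. By the lengths of flanking exons, within 3 bases, 15 introns of MAC3A and MAC3B could be paired, out of 17 constitutive introns in each. MAC3A intron 8, whose donor scored 7.93, had 7, 2 and 3 reads in the mutant and 2, 5 and 6 in the wild type, too few to test, while its partner is the raised MAC3B intron 8. The log2 ratio of MAC3B intron 8 to MAC3A intron 8, each relative to its gene, was higher by 2.60 in the mutant (3.11 ± 1.15 in the mutant and 0.51 ± 1.09 in the wild type, SD, n = 3 each). The pair is shown because MAC3B intron 8 was called, and the MAC3A intron has few reads, so no test is given.

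MAC3B intron 12 had 39, 31 and 18 reads in the mutant, against 25, 21 and 13 in the wild type, a log2 change of 0.74 ± 0.37 SE that was not called (adjusted p = 0.142, edgeR). Its donor scored 3.74, close to the 2.97 of the raised MAC3A intron 12. The ratio of the MAC3A to the MAC3B intron was higher by 1.24 on the log2 scale in the mutant (1.05 ± 0.29 in the mutant and -0.19 ± 0.45 in the wild type), without overlap. This pair too is shown because its MAC3A intron was called higher, so no test is given. MAC3B intron 2, with a donor score of 6.27, had 16, 10 and 16 reads in the mutant, against 9, 13 and 5 in the wild type (0.87 ± 0.51 SE, adjusted p = 0.225, edgeR). The ratio of MAC3A intron 2 to it was 1.90 higher in the mutant on the log2 scale, and the groups overlapped. Apart from these, 2 pairs were tested in both genes. The intron 13 pair, with the same donor score of 9.44 in both genes, had log2 changes of 0.07 in MAC3A and 0.12 in MAC3B. The intron 15 pair, with close scores of 4.88 in MAC3A and 5.03 in MAC3B, had log2 changes of opposite sign, 0.74 ± 0.54 SE in MAC3A and -0.73 ± 0.47 SE in MAC3B. In neither pair was an intron called.

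Summed over all constitutive introns, MAC3A had 6.86, 5.25 and 6.21 intron reads per 100 gene reads in the mutant, against 3.20, 4.07 and 3.89 in the wild type. MAC3B had 5.05, 5.94 and 4.42 in the mutant, against 2.66, 3.35 and 3.62 in the wild type. In both paralogs the groups did not overlap, but these sums hold the called introns. Without its called introns MAC3A had 4.21, 3.25 and 4.06 in the mutant and 2.60, 3.73 and 3.14 in the wild type. Without intron 8 MAC3B had 3.46, 3.84 and 2.79 in the mutant and 2.42, 2.94 and 3.34 in the wild type, so the groups of both genes then overlapped. PRL1 had 4.93, 5.92 and 4.15 in the mutant, against 3.00, 3.40 and 4.83 in the wild type, where replicate 3 lay within the range of the mutant. In the test of summed introns 1 of 8 genes was called, MAC3A (0.71 ± 0.19 SE, adjusted p = 0.00353, edgeR), against 43.3% of 14148 genes tested. When annotated retained introns were left out of the sum, an alternative added after the values were seen, 3 of 7 were called: MAC3A, MAC3B (0.69 ± 0.16 SE, adjusted p = 0.000714) and PRL1 (0.46 ± 0.19 SE, adjusted p = 0.0471). Over all genes 44.6% of 13831 were called that way. With annotated retained introns in the sum, 2 genes were called without wild type replicate 2 or 3 and 3 without mutant replicate 3, and 0 with the coverage covariate.

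Introns of the U5 genes, CDC5 and SKIP went without a call. The tested intron of PRP8 with the smallest p, intron 23 of 23 (chr1:30127296-30127382), had 12, 23 and 15 reads in the mutant, against 26, 29 and 20 in the wild type (log2 change -0.94 ± 0.39 SE, adjusted p = 0.0712, edgeR). All 5 tested introns of PRP8 lay near its 3′ end, from intron 19 to intron 23, and had negative values relative to the gene. The exon bins at that end were negative relative to the gene too, from -0.16 to -0.49 in exon bins 20 to 24. Relative to spliced reads, introns 19 to 23 had log2 changes of -0.04, -0.19, 0.02, -0.01 and -0.36, and intron 23 was not called (adjusted p = 0.564, edgeR). Over all its introns PRP8 had 1.63, 1.65 and 1.47 reads per 100 gene reads in the mutant and 1.54, 1.87 and 1.72 in the wild type, which overlapped. In CLO the intron with the smallest p (chr1:1903874-1903964) had 8, 7 and 12 reads in the mutant and 13, 23 and 12 in the wild type (-0.81 ± 0.50 SE, adjusted p = 0.251, edgeR). In CDC5 it was intron 2, with 14, 15 and 4 reads in the mutant and 10, 13 and 10 in the wild type (0.08 ± 0.52 SE, adjusted p = 0.938, edgeR).

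The 3 annotated retained introns behaved in another way: most of their reads lay inside the intron in both genotypes, and reads spliced over them were rare. In MAC3B the last intron, 18 of 18 (chr2:14126493-14126576, 84 bases, in the 3′ untranslated region), had 710, 912 and 713 reads in the mutant and 1038, 1251 and 707 in the wild type. Relative to the gene it was not called (log2 change -0.17 ± 0.13 SE, adjusted p = 0.393, edgeR). Its spliced reads numbered 0, 8 and 2 in the mutant, against 41, 44 and 29 in the wild type, or 0.0767 ± 0.0859 and 0.848 ± 0.0913 per 100 gene reads (SD, n = 3 each). Every mutant library was below every wild type library. This intron reached the minimum of spliced reads only through the wild type and was picked with its values in view, so its spliced reads are given as a description. The call relative to spliced reads counted above was lost with the coverage covariate and without mutant replicate 3.

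In BRR2A the last intron, 5 of 5 (chr1:7301866-7301956, 91 bases, in the 3′ untranslated region), had 3, 2 and 0 spliced reads in the mutant, against 10, 18 and 11 in the wild type. The groups did not overlap here either. Reads inside it numbered 575, 663 and 713 in the mutant and 1114, 968 and 524 in the wild type (-0.44 ± 0.18 SE relative to the gene, adjusted p = 0.0763, edgeR). Here too only wild type libraries reached 10 spliced reads, and the spliced reads are a description. Relative to the gene, the intron was called lower without mutant replicate 3 (-0.74, adjusted p = 0.00349) or wild type replicate 2 (-0.60, adjusted p = 0.0246), and the sign turned with the coverage covariate (0.21, adjusted p = 0.439). Relative to spliced reads the log2 change was 2.44, and 3.76 with the covariate. Both values rest on the few spliced reads of the mutant, so no test is given. In SKIP the retained intron is coding (chr1:28999970-29000275, 306 bases) and had 970, 1062 and 1016 reads in the mutant and 1205, 1818 and 836 in the wild type (-0.13 ± 0.13 SE relative to the gene, adjusted p = 0.515, edgeR). Its spliced reads, 6, 2 and 5 in the mutant and 4, 9 and 1 in the wild type, overlapped.

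**Figure D4:**
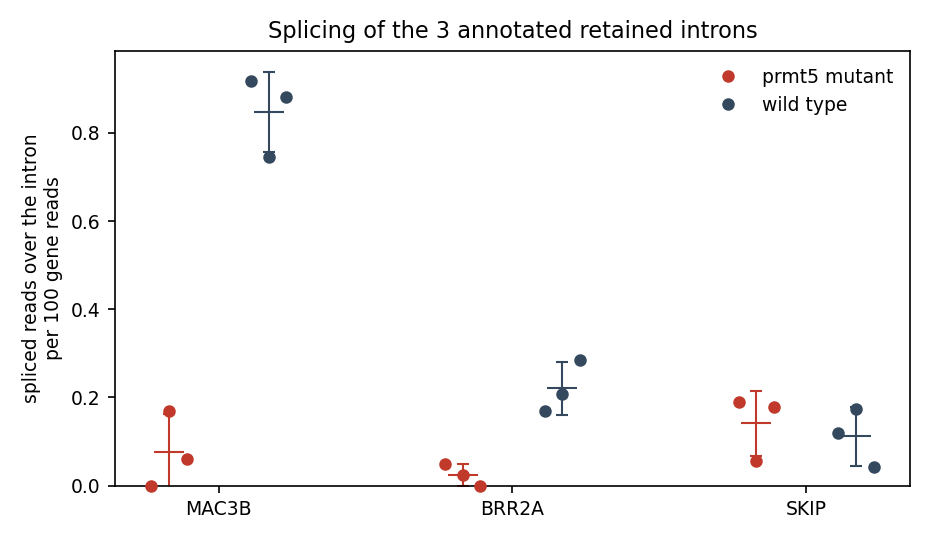
Reads spliced over each annotated retained intron per 100 reads of its gene in each library, with bars of mean and 1 SD (n = 3 each, cut off at 0), prmt5 mutant in red left of wild type in dark blue. In MAC3B the mutant averaged 0.0767 and the wild type 0.848, the BRR2A groups also lie apart, and the SKIP groups overlap.

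Exon use showed no called change. Of 107 exon bins tested in the 8 genes with bins, 0 were called by edgeR and 26 had an unadjusted p under 0.05. Over all genes 0.114% of 121498 bins were called, and 17.5% (21238) had an unadjusted p under 0.05. The smallest adjusted p among the 107 was 0.182. In PRP8 the bin nearest the 5′ end had a log2 change of 0.98 relative to the gene and the 2 nearest the 3′ end had -0.43 and -0.49. The read density given above was computed from the same exon bins, so these values restate it. Leaving out mutant replicate 3 raised the count of called bins to 30, or to 9.34% over all genes (11244 bins).

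Among 125 junctions of the 8 genes, 28 lay outside annotated introns and held 82 of 104643 spliced reads. Only 2 junctions had enough reads and a rival that shares an end, both at the 5′ end of SKIP, where 1 donor is joined to either of 2 acceptors. The acceptor nearer the donor took 18.8%, 36.8% and 51.4% of these reads in the mutant, against 21.8%, 28.1% and 18.8% in the wild type. The mutant libraries spread widely, from 18.8% to 51.4%, and 0 of the 2 junctions were called, with 0 at an unadjusted p under 0.05 (log2 change of the nearer acceptor 0.50 ± 0.39 SE, adjusted p = 0.903, diffSpliceDGE of edgeR), against 5.08% of 5020 junctions in all genes.

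Among the thin junctions, one in MAC3B was noticed after its values were seen. It joins a donor 15 bases downstream of the annotated donor of intron 8, the intron with the largest change, to the annotated acceptor. It had 8, 3 and 2 reads in the mutant, against 2, 2 and 0 in the wild type, too few to test. The donor scored 5.92, against 3.89 for the annotated one, and is shown in the same layout as above, read on the minus strand from TAIR10.1.
MAC3B, donor inside intron 8 (chr2:14129017-14129041): tcatctgATGGTTTTTtaatcacat

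Counting both directions, other genes of the same machinery were called about as often as genes at large. The shares were 33.3% of the other Prp19 complex genes, 35.7% of the other U5 genes and 25% of the genes for activation, the catalytic steps or disassembly, against 34.5% of all genes tested. By direction, 18.6% of all genes tested were called higher and 15.9% lower, with a median log2 change of -0.02, while most calls in the lists were higher. Of 15 other Prp19 complex genes tested, 5 were higher in the mutant and 0 lower, with a median log2 change of 0.10. They include PRL2, a paralog of PRL1 (1.65 ± 0.20 SE, adjusted p = 0.000119, edgeR), and 2 genes related to crooked neck, AT5G41770 (0.73 ± 0.09 SE, adjusted p = 0.000158) and AT5G45990 (2.11 ± 0.55 SE, adjusted p = 0.0133). AT5G45990 was low, at 1.40, 1.88 and 0.876 CPM in the mutant and 0.616, 0.247 and 0.0714 CPM in the wild type.

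Of 14 other genes of U5 and the U4/U6-U5 particle tested, 4 were higher and 1 lower, with a median of 0.15. The higher ones include PRP8B, a paralog of PRP8 (1.29 ± 0.20 SE, adjusted p = 0.000648, edgeR), GFL, a paralog of CLO (1.52 ± 0.25 SE, adjusted p = 0.00086), and STA1, the Prp6-like bridging protein (0.49 ± 0.11 SE, adjusted p = 0.00538). YLS8, the homolog of the small U5 protein Dim1, was lower (-0.28 ± 0.09 SE, adjusted p = 0.0381). Of the 17 genes that act in activation, the catalytic steps or disassembly, 16 were tested, 4 were higher and 0 lower, with a median of 0.20. They include the helicase genes MEE29 (1.11 ± 0.10 SE, adjusted p = 9.01e-06) and ESP3 (0.78 ± 0.10 SE, adjusted p = 0.000191), both related to yeast Prp2, and STIPL2, a paralog of STIPL1 (0.51 ± 0.10 SE, adjusted p = 0.00253). With the coverage covariate 2 genes of each list were called; STIPL2, STA1, YLS8 and AT5G45990 were not among them, while PRL2 (1.67, adjusted p = 0.00442), PRP8B (1.01, adjusted p = 0.0345) and GFL (1.17, adjusted p = 0.0403) were. Leaving out any 1 library also ended the call of YLS8, and leaving out mutant replicate 2 or wild type replicate 2 ended that of AT5G45990.

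Several of the called genes are the paralog of one of the 9, a grouping made after the values were seen. PRL2 had 7.36, 6.50 and 5.90 CPM in the mutant, against 2.57, 1.97 and 1.71 CPM in the wild type. PRP8B had 8.65, 8.38 and 5.78 CPM in the mutant, against 3.23, 2.61 and 3.57 CPM in the wild type, and GFL had 4.27, 5.51 and 3.12 CPM in the mutant, against 1.56, 1.62 and 1.28 CPM in the wild type. In all 3 the groups lay apart. Per length, PRL2 made up 8.75%, 7.79% and 7.35% of the summed level of PRL1 and PRL2 in the mutant, against 3.04%, 2.90% and 2.55% in the wild type. GFL made up 6.13% ± 1.18 of the sum with CLO in the mutant and 2.53% ± 0.297 in the wild type, and PRP8B 2.61% ± 0.216 of the sum with PRP8 in the mutant and 1.54% ± 0.346 in the wild type (SD, n = 3 each). STIPL2 is the more abundant copy, with 63.7% ± 1.86 of the sum with STIPL1 in the mutant and 57.4% ± 2.67 in the wild type.

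In these 4 pairs the shares of the genotypes did not overlap. The second copy of each had already been called higher in the gene test, so the separation is no separate result. How often such shares stand apart over all paralog pairs was not computed. The shares overlapped in BRR2A and BRR2B (29.8% ± 2.17 from BRR2B in the mutant and 28.9% ± 3.22 in the wild type) and in MAC3A and MAC3B. Exact permutation tests gave p = 0.1, the smallest possible, in 4 of the 6 pairs, 0.8 for BRR2B and 0.5 for MAC3B. Adjusted over the 6 pairs these are 0.15, 0.8 and 0.6. No source used here says how reads matching both copies of a pair were treated, so levels within a pair are uncertain, most of all for the scarcer copy.

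**Figure D5:**
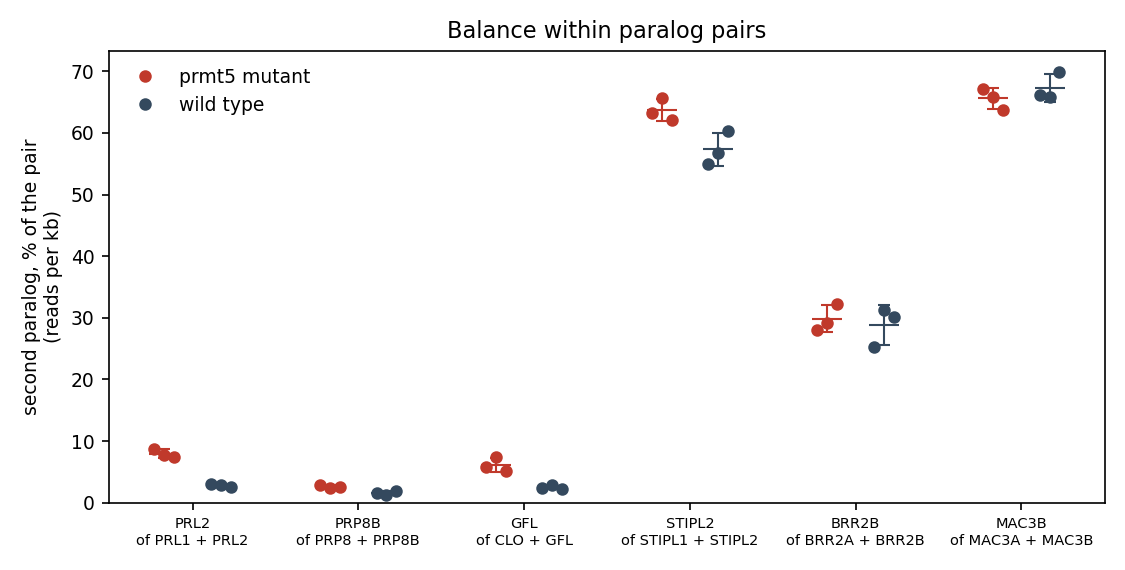
Share of the second paralog in the summed level of each pair, in percent of reads per kilobase, by library, with bars of mean and 1 SD (n = 3 each), prmt5 mutant in red left of wild type in dark blue. PRL2, PRP8B, GFL and STIPL2 took a larger share in each mutant library than in any wild type library, and the groups of BRR2B and MAC3B overlap.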

How the data were processed

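The deposited tables hold counts of reads per gene, exon bin, intron bin and splice junction, raw and as whole numbers, per the file headers and values; the effective lengths used per kilobase are columns of the deposited gene table. The submitters' processing notes name STAR and TAIR10; no source used here names the counting program or its use of strand. Locus tags paired 32835 genes with the TAIR10.1 reference used for sequences, and 32834 of them overlapped their reference gene.

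The gene test was the quasi-likelihood test of edgeR 4.0.16 (R 4.3.3; TMM scaling, robust fit, Benjamini-Hochberg adjustment over all features, calls under 0.05). For bins the offset was the gene's count plus 1 or, for introns, also the spliced reads. Bins and junctions needed 10 reads in 3 libraries, bins also a mean gene count of 20 and exon bins a gene with at least 2 of them. Junctions sharing an end were tested with diffSpliceDGE. Standard errors derive from the coefficient and its F value. Self-tests on simulated counts were run. DESeq2 1.42.0 served as an alternative.

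The genes and lists were chosen with earlier results of these data known. Named were all 9 genes, every called bin or junction in them, the intron with the smallest p in each, up to 3 called genes per list and direction, and the 3 genes most like the one of the 9 with the smallest p. Items outside this rule were picked with their values in view: the paralog shares, the MAC3B donor, matched introns, exon bins of PRP8 and the annotated retained introns against spliced reads.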

Additional observations from a re-analysis of the deposited data

How the results depend on the processing

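Of the single-feature values recomputed under other settings, 329 kept their direction and their side of the threshold, 29 lost a call, 7 gained one and 15 changed sign. The settings that moved calls most were the covariate for coverage along genes and leaving out a library. With the covariate, 0 of the 9 genes were called, 2 introns, 0 genes for summed introns and 2 genes of each of the 3 lists. Leaving out each library in turn, the ranges were 0 to 2 genes of the 9, 2 to 5 introns (2 to 4 relative to spliced reads), 1 to 3 genes for summed introns, 0 to 30 exon bins, 2 to 6 genes of the Prp19 list, 3 to 6 of the U5 list and 3 to 7 of the activation list. All 30 exon bins came without mutant replicate 3, where 11244 bins were called over all genes, against 138 with all libraries. For summed introns, 2 genes were called with library size as the scale, 2 without a filter on low counts, and 3 without annotated retained introns. The covariate reduced calls over all features from 7568 to 4133 genes, from 9606 to 5676 introns, from 6128 to 3505 summed introns, from 138 to 57 exon bins and from 255 to 132 junctions; a cluster total as offset gave 496 junctions. Without 1 mutant library 5123 to 5737 introns were called. The cause of these shifts was not tested.

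Signs changed only in values that were not called in the fit with all libraries, the read minimum and no covariate. With the covariate these were CDC5 (-0.04), CDC5 intron 2 (-0.83, and -0.74 relative to spliced reads) and the retained introns of BRR2A (0.21), SKIP (0.02) and MAC3B (0.01). The retained intron of BRR2A was called lower in some of the other settings, as given above. Over left-out libraries the ranges were -0.06 to 0.02 for SKIP, -0.09 to 0.05 for MAC3B, -0.01 to 0.09 for CDC5, and -0.17 to 0.40 for CDC5 intron 2 (-0.17 to 0.55 relative to spliced reads).

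Replicate numbers are shared between the genotypes in the labels, but deviations of same-numbered libraries correlated at -0.13, -0.04 and 0.00, so the numbers were not taken to pair them. With a replicate block, 1 of the 9 genes, 4 introns, 0 exon bins and 0 junctions were called, as without it; 2 genes were called for summed introns, and 42 exon bins over all genes, against 138. The MAC3A share of the pair was not fitted, and pairing by number leaves its difference of 1.65 percentage points the same by arithmetic. Median-ratio size factors shifted log2 changes by -0.001 against TMM; they were not run for bins, whose offset already holds library size. DESeq2 called the same number of the 9 genes (1) and of introns (4). The read minimum left out 67 of 95 introns; without it 6 introns were called, 1 of them among the 67. Without mutant replicate 3 the 3 calls were MAC3B intron 8, MAC3A intron 12 and, lower, the last intron of BRR2A.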
